A study of Mus musculus with 138 samples.

Results

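The mitochondrially encoded transcripts described here are 10 protein-coding genes of the mouse mitochondrial genome, out of 13 mt- genes and 25900 genes in all in the count tables. They were picked by symbol, not by any measured value: mt-Nd1, mt-Nd2, mt-Nd4, mt-Nd5, mt-Nd6, mt-Cytb, mt-Co1, mt-Co2, mt-Co3 and mt-Atp6. The other 3 mt- genes, mt-Nd3, mt-Nd4l and mt-Atp8, entered the mitochondrial total against which each gene's share was taken. Polyadenylated RNA was sequenced from single mouse embryos at the 2-cell stage, 1 library per plate well, to ask what loss of the chromatin remodeller SMARCA5 does to transcription when the embryo's own genome becomes active.

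In the maternal deletion experiment, Smarca5 +/- embryos of Smarca5-deleted mothers and normal fathers (called maternal deletion here) were set against embryos labelled Smarca5 +/+ (called wild type). Since matKO females are named in the titles of either group, the labels leave the mothers unclear, and the embryo's own genotype differs between the groups too. The Cre driver and the age of the mothers are not given in the sources used here. In the TrimAway experiment, wild-type zygotes were injected with an antibody to SMARCA5 (anti-SMARCA5) or with IgG, or were left uninjected (labelled a no injection control), and were collected a day or more later. In TrimAway an injected antibody marks its target protein for degradation by TRIM21. Embryos were pooled before they were sorted to wells, and a replicate number names such a pool, which the submitters call a technical replicate. P-values therefore measure the spread between embryos of few pools.

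Mitochondria carry a small circular genome that is copied into RNA by a polymerase of its own, POLRMT, as long transcripts of both strands, which are then cut into messenger, ribosomal and transfer RNAs. Its protein-coding genes all specify core subunits of oxidative phosphorylation: mt-Nd1 to mt-Nd6 of complex I, mt-Cytb of complex III, mt-Co1 to mt-Co3 of complex IV and mt-Atp6 of ATP synthase. The embryo at this stage still lives on the large stock of mitochondria that the egg laid down, and mt-Nd6 is the member read from the opposite strand to the others.

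Fragments of the mitochondrial genome also sit in the nuclear genome, and how much of a member is repeated there decides whether its reads have 1 possible origin. In GENCODE M21 (GRCm38), 100% of the 50-base windows of mt-Co2 occurred in the transcript of another gene, 99.9% of mt-Co3, 99.5% of mt-Atp6, 62.2% of mt-Nd4 and 51.1% of mt-Co1. The share was 8.2% for mt-Nd2 and 7.6% for mt-Nd5, and 0% for mt-Nd1, mt-Cytb and mt-Nd6. The copies that share most windows with mt-Co1, mt-Co2, mt-Co3, mt-Atp6 and mt-Nd4 are neighbouring unprocessed pseudogenes on the minus strand of chromosome 1. None of these copies is a line of the count tables. Further genes share windows with mt-Co1, mt-Co2 and mt-Atp6, and their places were not looked up. Only annotated transcripts were searched, and how the authors' counting treated reads that match several places is not given in the sources used here. The 3 pairs shown compare 60 bases of a complex IV gene with its nuclear copy, 5′ to 3′, with capitals at mismatched bases. The mt-Co1 pair is the edge of a copy that covers 492 bases of the gene with 6 mismatches, all of them in the stretch shown. The mt-Co2 and mt-Co3 pairs hold 0 mismatches, as do 681 and 783 aligned bases of these genes.
mt-Co1 (MT:6381-6440, plus strand): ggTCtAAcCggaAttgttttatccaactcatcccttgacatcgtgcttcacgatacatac
Gm29216 (chr1:24616138-24616197, minus strand): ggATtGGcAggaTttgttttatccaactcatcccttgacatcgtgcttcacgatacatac
mt-Co2 (MT:7634-7693, plus strand): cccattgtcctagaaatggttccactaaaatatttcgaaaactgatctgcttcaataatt
Gm28661 (chr1:24614885-24614944, minus strand): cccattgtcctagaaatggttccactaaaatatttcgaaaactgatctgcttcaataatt
mt-Co3 (MT:9330-9389, plus strand): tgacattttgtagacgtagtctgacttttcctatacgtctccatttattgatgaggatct
Gm28437 (chr1:24613189-24613248, minus strand): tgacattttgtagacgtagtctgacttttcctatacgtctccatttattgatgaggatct

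Of 135 embryo libraries, 116 held at least 100000 counts and were used: 22 wild type, 28 maternal deletion, 15 uninjected, 20 IgG and 31 anti-SMARCA5. Their totals ran from 109007 to 12005000 counts (median 1469200). Wild-type and maternal deletion libraries came from replicates 1 and 2, which the file headers place on different sequencing lanes, so pool and lane cannot be told apart. The uninjected and IgG libraries used came from replicates 1 and 3 and anti-SMARCA5 libraries from replicates 1, 2 and 3, all on 1 lane. IgG embryos of replicate 2 were sequenced too, but all their libraries fell under the minimum. The anti-SMARCA5 libraries of replicate 2 thus had no control of their own number in the fits. Smarca5 had a median of 82.2 CPM (counts scaled to a library total of 1000000) after maternal deletion and 443 in wild type. In 3 libraries of the deletion experiment (1 maternal deletion, 2 wild type, all replicate 2), Smarca5 and the egg gene Gdf9 stood apart from the rest of the group. Trim21 was above 3 counts in 30 of 31 anti-SMARCA5 libraries, in 8 of the 10 IgG libraries of replicate 3 and in 0 of the 10 of replicate 1, so the IgG group is not 1 uniform control. Summed markers of cumulus or granulosa cells had group medians from 5.18 to 76.7 CPM and those of spermatozoa from 0 to 3.07 CPM. Summed egg markers (12 genes) had a median of 1376 CPM in wild type (337 to 4451) and 9949 CPM after maternal deletion (728 to 32702.5). Summed 2-cell markers (9 genes) had one of 1065 CPM (448 to 1683) and 316 CPM (60.3 to 1712).

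The 10 members were measured at very different levels, and the order did not follow their complexes. Compared per kilobase (kb) of transcript, the median CPM per kb over the 116 libraries was highest for mt-Nd1 at 29562, mt-Co1 at 22828 and mt-Cytb at 21179. mt-Nd2 (10719), mt-Nd5 (7342) and mt-Nd4 (5565) followed, and mt-Nd6, the gene of the opposite strand, stood at 1551. The lowest were mt-Atp6 at 596, mt-Co2 at 216 and mt-Co3 at 167, the members that are repeated almost whole in the nuclear genome. Which of mt-Nd1, mt-Cytb and mt-Co1 came first varied between embryos: per kb, mt-Nd1 was highest of all mt- genes in 65 libraries, mt-Cytb in 40 and mt-Co1 in 11.

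Within complex IV, whose 3 mitochondrially encoded subunits form 1 catalytic core, mt-Co1 was above mt-Co2 and above mt-Co3 per kb in all 116 libraries. The ratio of medians was 105-fold to mt-Co2 and 137-fold to mt-Co3. How reads shared with the nuclear copies were counted is not known, and its part in these ratios was not tested. Within complex I, mt-Nd1 was 19.1-fold above mt-Nd6 and 5.31-fold above mt-Nd4. In counts, mt-Nd1, mt-Nd2, mt-Nd4, mt-Nd5, mt-Cytb and mt-Co1 made up 98.4% ± 0.836 (SD, n = 116) of all mt- counts, and mt-Co2, mt-Co3 and mt-Atp6 together a median of 0.485%. The 3 low members were still covered: mt-Co2 had 0 counts in 2 libraries and mt-Co3 and mt-Atp6 in 1 each. In those libraries a count of 0 allows up to between 6.32 and 27.5 CPM (3 counts, counting error only).

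**Figure D1:**
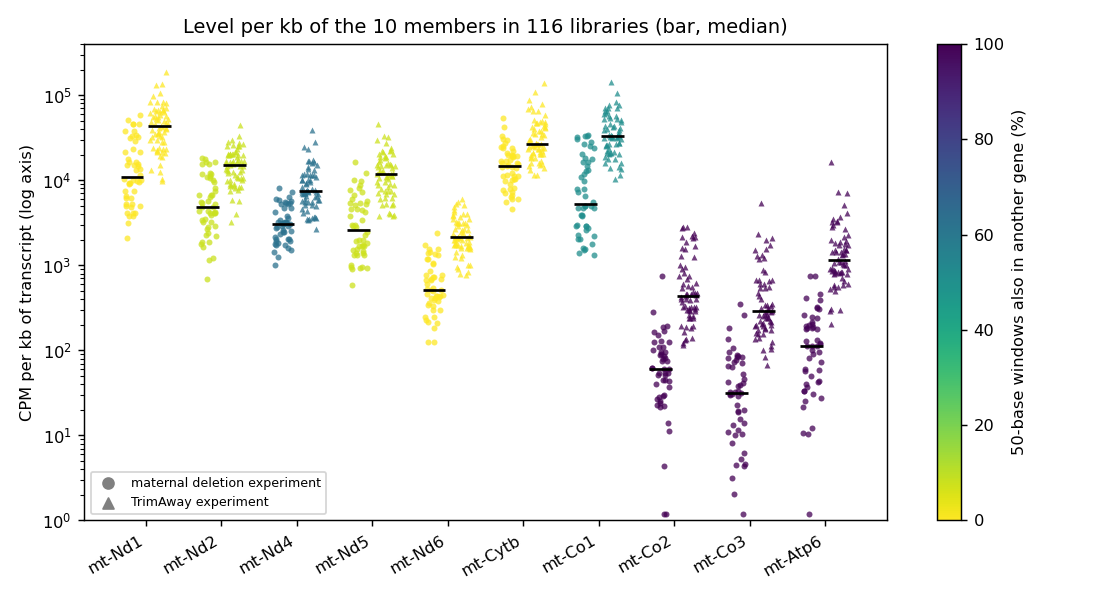
CPM per kb of transcript (log axis) of the 10 genes in the 116 libraries. Circles are libraries of the maternal deletion experiment and triangles those of the TrimAway experiment, bars are medians, color is the percent of 50-base windows found in another gene, and counts of 0 are drawn at the bottom edge. mt-Co2, mt-Co3 and mt-Atp6, with 99.5 to 100% of windows shared, lie lowest in both experiments.

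The part of each library that came from the 10 members differed widely between embryos and between groups. It had a median of 4.31% in wild type (range 1.29 to 17.8, n = 22) and 6.52% after maternal deletion (2.57 to 18.4, n = 28). In the TrimAway experiment it was 10.6% in uninjected embryos (5.69 to 30.1, n = 15), 17.0% after IgG (7.0 to 36.0, n = 20) and 24.2% after anti-SMARCA5 (9.55 to 74.1, n = 31). The ranges of neighbouring groups in this order overlapped. No spike-in line was in the tables, so more mitochondrial RNA and less RNA from the nuclear genome cannot be told apart.

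**Figure D2:**
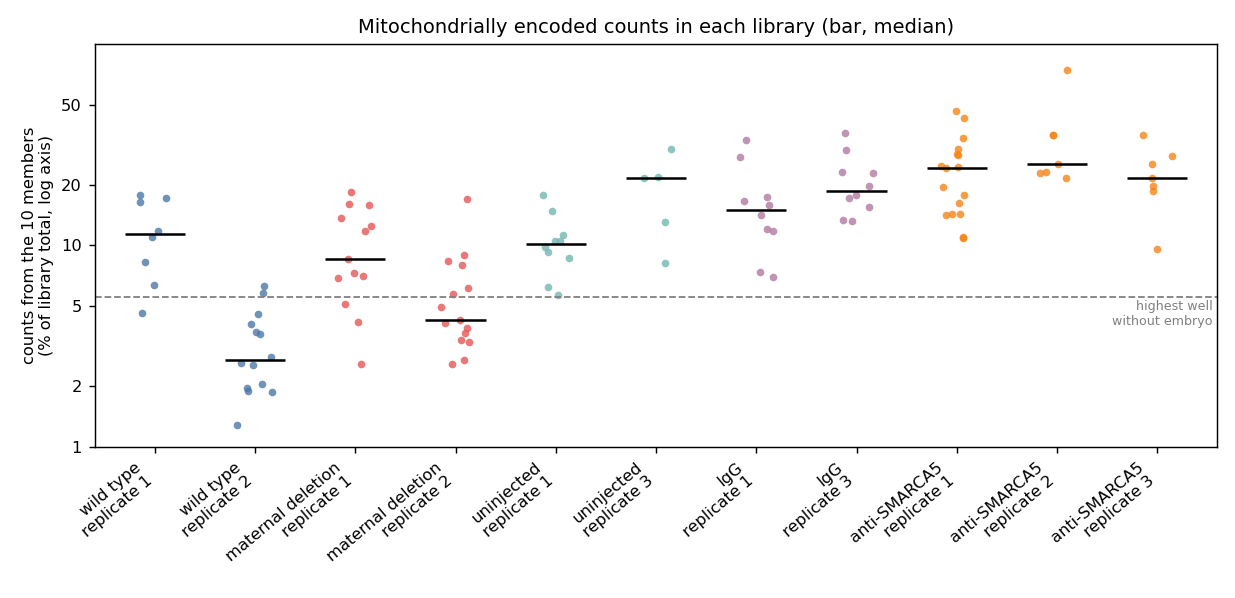
Percent of each library's counts that came from the 10 genes (log axis), by group and replicate. Points are libraries, bars medians, and the dashed line is the highest of the 3 wells without an embryo, 5.52%. These wells were all on the lane of replicate 2 of the maternal deletion experiment. All TrimAway libraries lie above that line, and wild-type libraries of replicate 2, with a median of 2.70%, lie lowest.

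The abundant members followed this order with overlapping groups. mt-Nd1 had a lowest, median and highest value of 2006, 7916 and 56278 CPM in wild type and of 3969, 12831 and 48546 CPM after maternal deletion. In uninjected embryos the 3 values were 9475, 23031.5 and 77839.6 CPM, after IgG 11855, 33254 and 66832 CPM, and after anti-SMARCA5 18663, 56022.5 and 179667 CPM. mt-Nd1, a subunit of the membrane arm of complex I, was thus above the highest uninjected library in 8 of 31 anti-SMARCA5 libraries and above the highest wild-type library in 0 of 28 maternal deletion libraries.

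mt-Co1, the catalytic subunit of complex IV, ran from 2046 through a median of 4550.4 to 51048.5 CPM in wild type and from 2352 through 12241 to 51942 CPM after maternal deletion. It ran from 15797.5 through 32927 to 81858 CPM in uninjected embryos, from 21141 through 51203 to 162437 CPM after IgG and from 24778 through 65583 to 223089 CPM after anti-SMARCA5. mt-Cytb, the cytochrome b subunit of complex III, varied less between groups, with medians of 14828, 17542, 20922, 29953 and 39709 CPM in the same order. mt-Cytb ran from 5239.5 to 34743 CPM in wild type and from 15976 to 157700 CPM after anti-SMARCA5.

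mt-Atp6, the proton-channel subunit of ATP synthase, differed most between the experiments. Its lowest, median and highest values were 0, 39.9 and 313 CPM in wild type and 14.7, 89.7 and 509.6 CPM after maternal deletion. The values were 139, 694 and 1285 CPM in uninjected embryos, 196, 653 and 4827 CPM after IgG and 205, 1186 and 11305 CPM after anti-SMARCA5. In 14 of 15 uninjected libraries mt-Atp6 was above all 22 wild-type libraries. For each of the other members at most 4 uninjected libraries were.

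mt-Nd6 had medians of 232, 277, 850.2, 1023 and 1539 CPM from wild type to anti-SMARCA5. Group medians ran over the same groups from 3564 to 20801 CPM for mt-Nd2, from 3951 to 13695 for mt-Nd4, from 3286 to 27760.4 for mt-Nd5, from 36.1 to 389 for mt-Co2 and from 16.5 to 319 for mt-Co3. The order wild type, maternal deletion, uninjected, IgG, anti-SMARCA5 held for the medians of 9 of the 10 members, the exception being mt-Atp6, and in all 40 pairs of neighbouring groups the libraries overlapped. The order was one of pooled replicates. Within replicate 1, maternal deletion had the lower median than wild type for 7 of 10 members (mt-Nd1 ratio 0.498). Within replicate 3, IgG had the lower median than uninjected for 6 of 10 (mt-Nd1 ratio 0.751) and anti-SMARCA5 than uninjected for 5 of 10.

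The control groups of the experiments, uninjected and wild type, also had unequal medians. The ratio of their median CPM was 1.41 for mt-Cytb, 1.60 for mt-Nd4, 2.91 for mt-Nd1, 7.24 for mt-Co1, 8.62 for mt-Co3 and 17.4 for mt-Atp6. As shares of the mitochondrial total, mt-Co2, mt-Co3 and mt-Atp6 were 2.87, 3.44 and 6.69 times as high in uninjected embryos, while mt-Cytb was at 0.516 times its wild-type share. These groups come from different tables, lanes and embryo sources, which cannot be told apart, and this pair was not tested.

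In the fit that pooled the replicates, mt-Atp6 alone of the 10 members passed the test of maternal deletion against wild type. With the replicate number as a block 4 passed, with a median log2 fold change of 0.69 over the members. In the pooled fit mt-Atp6 rose by 1.06 (SE 0.43) on the log2 scale, with p = 0.0297 in edgeR's quasi-likelihood test, adjusted over all genes. Of all 8518 genes tested, 30.3% rose, so 1 of 10 is no more than the background. The other members had log2 fold changes from 0.03 for mt-Co2 (adjusted p = 0.961) to 0.66 for mt-Co1 (SE 0.44, adjusted p = 0.192). The median over the members was 0.43, beside 0.18 over all genes. The shift of egg and 2-cell markers given above runs between the same groups, and its part in these results was not tested. Without the 3 libraries that stood apart, mt-Atp6 remained the member called, at 0.97 (SE 0.42, adjusted p = 0.0402). The adjusted p of mt-Atp6 ran from 0.0122 to 0.269 over its alternatives, and its call was lost with either replicate alone and in libraries of at least 500000 counts (0.86, SE 0.50, adjusted p = 0.159).

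**Figure D3:**
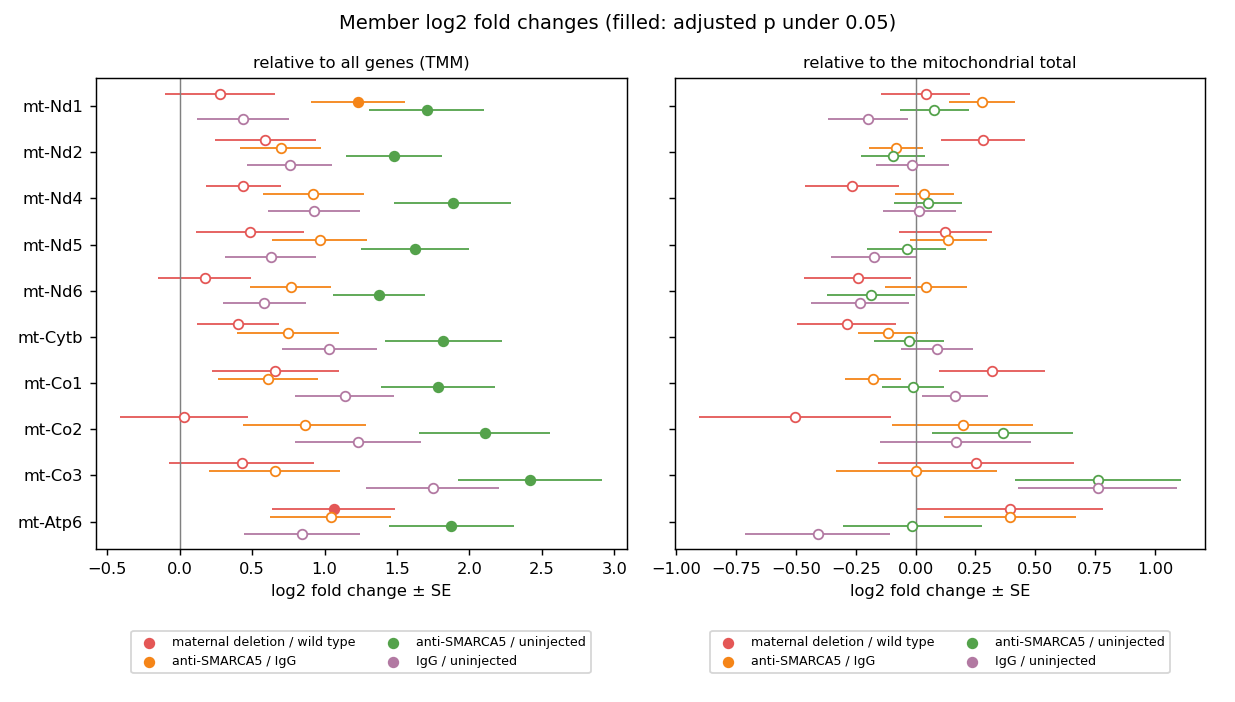
Log2 fold changes with standard errors of the 10 genes in the 4 comparisons with replicates pooled, relative to all genes (left) and relative to the mitochondrial total (right). Filled points passed an adjusted p of 0.05: all 10 for anti-SMARCA5 against uninjected, mt-Nd1 against IgG and mt-Atp6 after maternal deletion on the left, and 0 on the right.

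The deletion comparison was also fitted in each of its 2 collections alone. In replicate 1 (8 wild type, 13 maternal deletion) edgeR called 0 members, while 43.8% of all genes were called. At an unadjusted p under 0.05 there were 0 members, beside 3299 of all 6389 genes. The log2 fold changes ran from −0.53 for mt-Co2 to 0.74 for mt-Atp6, and 8 of 10 were below 0. In replicate 2 (14 wild type, 15 maternal deletion) 8 members rose, beside 24.1% of all genes: mt-Nd1 by 1.63 (SE 0.36, adjusted p = 0.00061), mt-Nd2 by 1.72 (SE 0.32, adjusted p = 0.000123), mt-Co1 by 1.58, mt-Co3 by 2.20, mt-Nd5 by 1.34, mt-Nd4 by 0.97, mt-Nd6 by 0.94 and mt-Cytb by 0.83. mt-Atp6 stood at 1.38 (adjusted p = 0.0552) and mt-Co2 at 0.74 (adjusted p = 0.227) there.

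With the replicate number as a block, 4 members rose (mt-Nd2, mt-Co1, mt-Nd5 and mt-Atp6), beside 31.8% of all genes. In the test of the difference itself, replicate 2 minus replicate 1, edgeR called 0 of the 10 members and 0.763% of all genes. At an unadjusted p under 0.05 there were 7 members, beside 1366 of all 8518 genes. They were led by mt-Nd1 with a difference of 2.01 (SE 0.54, adjusted p = 0.0553) and mt-Nd2 with 1.72 (SE 0.52, adjusted p = 0.0834). mt-Co3 had a difference of 2.51 (SE 0.83, adjusted p = 0.111).

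**Figure D4:**
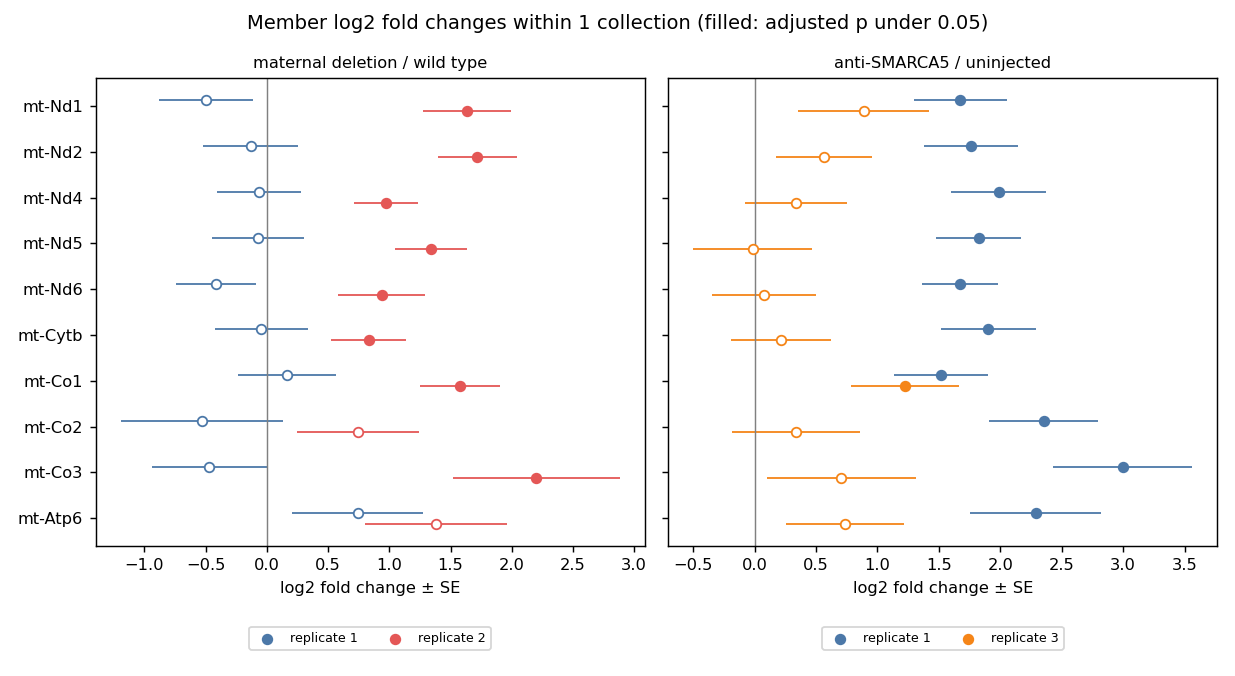
Log2 fold changes with standard errors of the 10 genes within single replicates, for maternal deletion against wild type (left) and anti-SMARCA5 against uninjected (right). Filled points passed an adjusted p of 0.05: 0 in replicate 1 and 8 in replicate 2 on the left, 10 in replicate 1 and mt-Co1 alone in replicate 3 on the right.

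The collections were also compared within each genotype, in comparisons added after seeing the data. The members' percent of wild-type libraries had a median of 11.4% in replicate 1 (4.62 to 17.8, n = 8) and 2.70% in replicate 2 (1.29 to 6.32, n = 14), and 12 of the 14 lay below the lowest of replicate 1. After maternal deletion the medians were 8.53% (2.57 to 18.4, n = 13) and 4.25% (2.59 to 17.0, n = 15), with overlapping ranges. In wild type, 9 of 10 members fell from replicate 1 to replicate 2, beside 17.0% of all genes. mt-Co3 fell by 3.44 (SE 0.57, adjusted p = 3.32e-05) on the log2 scale, mt-Co1 fell by 3.38 (SE 0.32, adjusted p = 4.41e-08) and mt-Nd1 fell by 2.94 (SE 0.34, adjusted p = 4.3e-07). mt-Atp6 did not pass (−0.58, adjusted p = 0.479). After maternal deletion 2 members fell, mt-Co1 (log2 fold change −1.98, SE 0.38, adjusted p = 0.0012) and mt-Nd5 (−1.45, SE 0.33, adjusted p = 0.00502), beside 4.41% of all genes.

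The make-up of the mitochondrial counts changed between the same collections. The share of mt-Co1 in all mt- counts had a median of 25.9% in wild-type replicate 1 (20.7 to 29.6) and 12.1% in replicate 2 (8.07 to 18.4), with no overlap. After maternal deletion it was 31.3% (22.8 to 35.2) and 14.5% (6.95 to 22.3), again with no overlap. mt-Cytb went the other way, from 20.4% (15.6 to 26.5) to 41.7% (32.8 to 53.1) in wild type, with no overlap, and from 21.2% (13.8 to 32.0) to 36.2% (21.0 to 49.1) after maternal deletion, with overlap.

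Fitted relative to the mitochondrial total, mt-Co1 fell in both groups between the collections, with log2 fold changes of −0.98 in wild type (SE 0.24, adjusted p = 0.000758) and −1.03 after maternal deletion (SE 0.26, adjusted p = 0.00379). mt-Cytb rose in both, by 1.03 (SE 0.25, adjusted p = 0.000568) and 0.70 (SE 0.26, adjusted p = 0.0461). In wild type, mt-Nd4 (0.88) and mt-Atp6 (1.69) also rose and mt-Nd1 fell (−0.65), so that 5 members were called, beside 68.0% of all genes. After maternal deletion mt-Co1 and mt-Cytb were the 2 called, beside 25.5% of all genes. With the summed mt- counts as library size these shares of all genes carry the shift of the scale, so they are no background for the members. Of the genes called, 4743 rose and 15 fell in wild type (median over all genes 2.27). After maternal deletion 2057 rose and 25 fell (median 0.96).

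**Figure D5:**
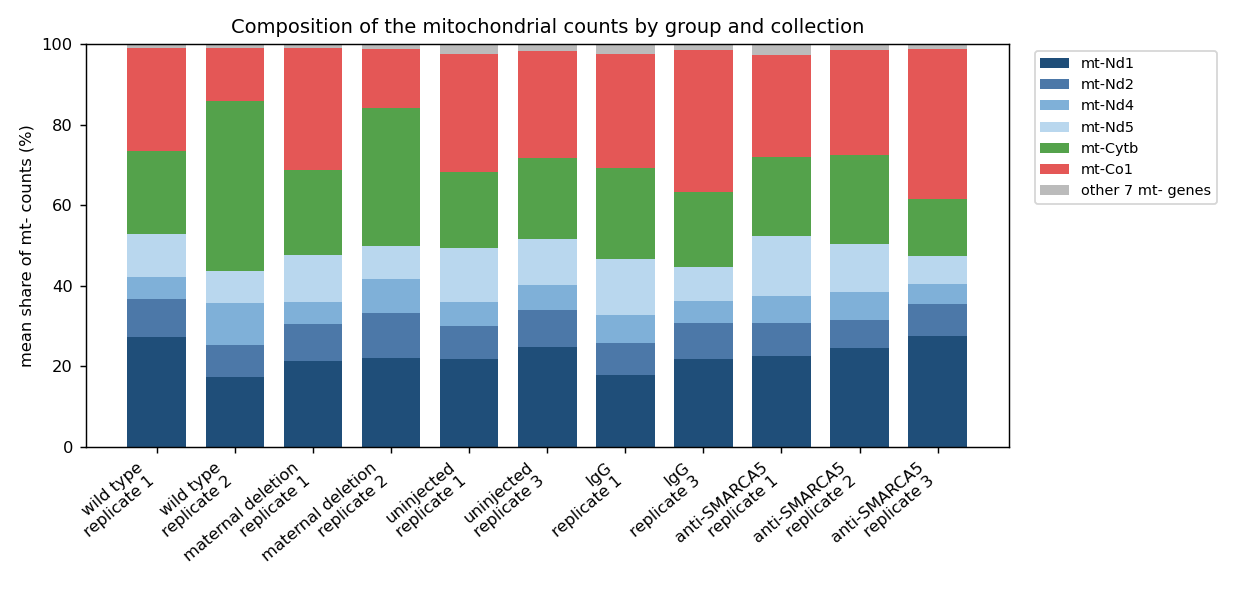
Mean share of each abundant mitochondrial gene in all mt- counts (percent, bars stacked to 100), by group and replicate. mt-Cytb is broad and mt-Co1 narrow in replicate 2 of wild type and of maternal deletion, and mt-Nd5 is narrow in replicate 3 of IgG and anti-SMARCA5.

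After anti-SMARCA5, all 10 members rose against uninjected embryos, in all 4 complexes. The log2 fold changes ran from 1.38 for mt-Nd6 (SE 0.32, adjusted p = 0.00244) to 2.42 for mt-Co3 (SE 0.50, adjusted p = 0.00133). mt-Nd1 rose by 1.70 (SE 0.40), mt-Cytb by 1.82 (SE 0.40), mt-Co1 by 1.78 (SE 0.39) and mt-Atp6 by 1.88 (SE 0.43), with adjusted p-values from 0.00194 for mt-Co1 to 0.00272 for mt-Nd1. Of all 10750 genes tested, 17.5% rose, and the median log2 fold change was 1.80 over the members and 0.13 over all genes. With total counts as scale all 10 were still called, with a median of 0.98 over the members and −0.29 over all genes, of which 409 of 10750 rose. With the replicate number as a block all 10 were called, with a median of 1.41 over the members. Without replicate 2, which had no control of its number, all 10 were called, with a median of 1.34. Of all genes, 1853 of 10750 and 1884 of 10283 rose in these 2 fits. Between 22 of 31 anti-SMARCA5 libraries (mt-Atp6) and 30 of 31 (mt-Nd4 and mt-Cytb) were above the uninjected median.

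These calls depended on replicate 1. Within replicate 1 (10 uninjected, 17 anti-SMARCA5; chosen after seeing the data) all 10 members rose, by 1.52 (mt-Co1) to 2.99 (mt-Co3), beside 11.1% of all genes. Within replicate 3 (5 uninjected, 7 anti-SMARCA5), mt-Co1 alone rose, by 1.22 (SE 0.44, adjusted p = 0.05 after rounding from below), beside 15.1% of all genes. The other 9 members ran from −0.015 for mt-Nd5 to 0.89 for mt-Nd1. Without replicate 1, edgeR called 0 members and 0.00948% of all genes. At an unadjusted p under 0.05 there were 5 members, beside 2261 of all 10544 genes. The members' log2 fold changes still ran from 0.96 (mt-Nd6) to 1.80 (mt-Co1) there. Whether the rise differed between replicates 1 and 3 was not tested. The uninjected libraries themselves had a median members' percent of 10.1% in replicate 1 (5.69 to 17.8, n = 10) and 21.6% in replicate 3 (8.18 to 30.1, n = 5), beside 24.2% and 21.5% after anti-SMARCA5.

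Against IgG the difference was smaller, and 1 member passed. mt-Nd1 rose by 1.23 (SE 0.33, adjusted p = 0.0317), and lay above the median of IgG in 27 of 31 anti-SMARCA5 libraries, beside 1.73% of all genes. The other 9 members had log2 fold changes from 0.61 (mt-Co1, adjusted p = 0.248) to 1.04 (mt-Atp6, adjusted p = 0.108). An unadjusted p under 0.05 was found for 8 of the 10 members, beside 2762 of all 10447 genes. The median was 0.82 over the members and 0.04 over all genes. When the replicate number was a block, mt-Nd1 was again the 1 member called (1.01, SE 0.31, adjusted p = 0.0162), beside 12.1% of all genes that rose. But 1 member in place of 8 had an unadjusted p under 0.05, beside 4252 of all 10447 genes. The median over the members was then 0.43. With DESeq2, 4 members were called, beside 1029 of all 10447 genes. The adjusted p of mt-Nd1 ran from 0.00488 to 0.387 over its alternatives. Without replicate 1 edgeR called 0 members (mt-Nd1 1.42, SE 0.48), beside 0 of all 9402 genes. Without replicate 2 edgeR called 0 members (mt-Nd1 0.85, SE 0.29), beside 591 of all 10100 genes. In both fits 3 members had an unadjusted p under 0.05, beside 1210 and 2813 of all genes.

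Within replicate 1, edgeR called 0 members against IgG (4 at an unadjusted p under 0.05), beside 0.857% of all genes, and within replicate 3 again 0 (0 at an unadjusted p under 0.05), beside 16.5%. Such an unadjusted p was found for 2396 of all 10507 genes in replicate 1 and 3489 of 9547 in replicate 3. mt-Nd1 stood at 1.17 (SE 0.39, adjusted p = 0.0912) in replicate 1, where 0 of 10 IgG libraries were above 3 Trim21 counts, and at 0.81 (SE 0.39, adjusted p = 0.138) in replicate 3. The other members in replicate 3 ran from −0.39 (mt-Co3) to 0.25 (mt-Co1). One anti-SMARCA5 library of replicate 2 had 74.1% of its counts from the 10 members, and without it mt-Nd1 was still called (0.87, SE 0.26, adjusted p = 0.0483), with a median of 0.53 over the members.

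For IgG against uninjected embryos edgeR called 0 of the 10 members and 0% of all genes. At an unadjusted p under 0.05 there were 8 members, beside 1440 of all 9915 genes. DESeq2 called 3 members, beside 207 of all 9915 genes. All 10 log2 fold changes were above 0, from 0.44 for mt-Nd1 (SE 0.32, adjusted p = 0.524) to 1.75 for mt-Co3 (SE 0.46, adjusted p = 0.161), with a median of 0.88 over the members and 0.03 over all genes. Without replicate 1 the median over the members was 0.45, with 0 members called and 0 at an unadjusted p under 0.05. Of all 9348 genes, 0 were called there and 916 had such a p. The median members' percent after IgG was 15% in replicate 1, beside 10.1% in uninjected embryos, and 18.7% in replicate 3, beside 21.6%. The test of a difference in the IgG effect between replicate 3 and replicate 1 called 0 members and 0% of all genes. At an unadjusted p under 0.05 there were 0 members, beside 967 of all 9915 genes. The comparisons of anti-SMARCA5 and of IgG with uninjected embryos share the uninjected libraries.

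Relative to the mitochondrial total, edgeR called 0 of the 10 members in each of the 4 comparisons. This scale sets the summed mt- counts of a library as its size, and it moved the median of all genes from 0.13 to −1.19 for anti-SMARCA5 against uninjected. Beside the 0 members stood 61.7% of all genes called there, 5.02% for anti-SMARCA5 against IgG, 0% for IgG against uninjected and 47.9% for maternal deletion against wild type. These shares carry the shift of the scale and are no background for the members. At an unadjusted p under 0.05 there were 1, 1, 1 and 0 members. Two-sided permutation tests of the log2 share of each member (100000 resamples) gave an unadjusted p under 0.05 for 0, 2, 1 and 2 members in the same order, among them mt-Nd2 after maternal deletion (mean log2 difference 0.28, p = 0.00051) and mt-Nd1 in the comparison with IgG (0.31, p = 0.0128). These tests pooled the replicates. The mean share of mt-Nd2 was 9.23% after maternal deletion and 9.27% in wild type in replicate 1, and 11.1% and 7.89% in replicate 2.

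Within the TrimAway experiment the make-up also moved between collections, in comparisons added after seeing the data. The share of mt-Nd5 had a median of 15.1% in anti-SMARCA5 replicate 1 (9.20 to 19.5, n = 17) and 6.77% in replicate 3 (5.82 to 8.07, n = 7), with no overlap. In IgG embryos it was 14.6% (10.3 to 17.7, n = 10) and 7.42% (5.31 to 14.5, n = 10), and in uninjected embryos 12.9% (10.4 to 16.3, n = 10) and 10.3% (9.14 to 13.5, n = 5). Relative to the mitochondrial total, mt-Nd5 fell from replicate 1 to 3 after anti-SMARCA5 (−1.08, SE 0.21, adjusted p = 0.00219), as did mt-Co2 (−1.58), mt-Co3 (−1.55), mt-Atp6 (−1.36) and mt-Nd6 (−0.77), while mt-Co1 rose (0.56, adjusted p = 0.0223). These 6 calls stood beside 21.9% of all genes, a share that carries the shift of the scale (median over all genes −0.57). Without a filter on low counts 4 were called, beside 3111 of all 21507 genes, mt-Co1 (adjusted p = 0.061) and mt-Nd6 (adjusted p = 0.0892) being lost. In IgG embryos edgeR called 0 members (3 at an unadjusted p under 0.05) and 0.259% of all genes, with mt-Nd5 at −0.76 (SE 0.24, adjusted p = 0.0724).

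The deletion and TrimAway effects were compared in 1 fit of 4 groups, (maternal deletion minus wild type) minus (anti-SMARCA5 minus IgG). edgeR called 0 of the 10 members, 1 of them (mt-Nd1, −1.06, SE 0.49, adjusted p = 0.114) at an unadjusted p under 0.05, beside 19.2% of all genes. The remaining differences ran from −0.97 for mt-Co2 to −0.02 for mt-Atp6, and all 10 were below 0. With the replicate number as a block the direction did not hold: 7 of the 10 differences were above 0 (median 0.15, mt-Nd1 −0.41), with 0 called and 0 at an unadjusted p under 0.05. Scaled by total counts, 3 were above 0.

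A list of 42 nuclear genes, all in the tables, covered the copying and processing of mitochondrial RNA and the upkeep of mitochondrial DNA. After maternal deletion 30 of them were tested: 5 rose, 9 fell and 16 did not pass. Of all genes 30.3% rose and 26.4% fell, so the count that fell is near the background. The median was −0.33, beside 0.18. Polrmt, the mitochondrial RNA polymerase, fell by 3.96 (SE 0.80, adjusted p = 5.52e-05) on the log2 scale. Its median was 23.7 CPM in wild type (0 to 225) and 0 after maternal deletion (0 to 57.6), where 22 of 28 libraries had no count. Ssbp1, the single-strand DNA binding protein of mitochondria, fell by 3.01 (SE 0.52, adjusted p = 4.12e-06) and Mrpl12, a mitochondrial ribosomal protein that binds POLRMT, fell by 2.88 (SE 0.70, adjusted p = 0.000501). Fastk (1.92), Angel2 (1.62) and Supv3l1 (1.12), the helicase of mitochondrial RNA decay, rose.

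The marker shift stands beside these nuclear genes too, and its part was not tested. In the pooled fit of the same libraries 0 of the 10 members were called as falling, beside 26.4% of all genes. Within replicate 1 alone 8 of the 10 members had log2 fold changes below 0, with 0 called. Any link between the nuclear genes and the members was not tested. Tfam, the factor that packs mitochondrial DNA and starts its transcription, did not pass (0.96, SE 0.69, adjusted p = 0.231), and the initiation factor Tfb2m fell by 0.69 (SE 0.26, adjusted p = 0.0184).

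In the comparison of anti-SMARCA5 with IgG, 34 of the list were tested. Supv3l1 alone rose (0.99, SE 0.28, adjusted p = 0.0412), beside 1.73% of all genes, and 0 fell, beside 1.30%. Polrmt did not pass against IgG (−1.48, SE 0.56, adjusted p = 0.0944). Against uninjected embryos 3 of 36 rose and 3 fell, beside 17.5% and 10.4% of all genes. Supv3l1 rose there too (1.29, SE 0.29, adjusted p = 0.00227), and Polrmt fell by 1.97 (SE 0.54, adjusted p = 0.00802), from a median of 43.6 CPM (8.83 to 137) to 3.15 CPM (0 to 51.4). For IgG against uninjected 0 of 35 passed.

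The members varied together from embryo to embryo. Over the 116 libraries, with each gene's log2 CPM centred on its group and replicate, the Spearman correlation between pairs of the 6 abundant members had a median of 0.822 (15 pairs, 0.627 to 0.908). The 6 pairs with mt-Nd6 had a median of 0.781, and the 3 pairs among mt-Co2, mt-Co3 and mt-Atp6 one of 0.694. All pairs share each library's total, which carries the mitochondrial counts themselves. The members' percent, centred in the same way, had a Spearman correlation of 0.240 with the library's total counts, −0.311 with summed egg markers and −0.277 with summed 2-cell markers. Of 2252 well-covered other genes, Bmi1 (0.617), Sycp3 (0.611), Chpt1 (0.577), Gm13145 (0.577) and Gm13152 (0.544) followed the summed members most closely.

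Wells without an embryo held few counts, some of them mitochondrial. The 3 wells had totals of 823, 1875 and 453 counts, of which the members took 2.07%, 3.25% and 5.52%. All 3 were on the lane of replicate 2 of the maternal deletion experiment, so the other lanes had no such well of their own. The members' percent was above 5.52% in all 15 uninjected, 20 IgG and 31 anti-SMARCA5 libraries, in 16 of 28 maternal deletion libraries and in 9 of 22 wild-type libraries.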

How the data were processed

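Libraries were the RNA part of single-embryo scNMT-seq (polyadenylated RNA, Nextera XT), per the labels' protocols. The deposited values are raw read counts per gene, in 1 table per experiment on GRCm38. The submitters' processing notes name Trim Galore 0.6.5, cutadapt 2.3 and HISAT2 2.1.0, and use of strand and of reads matching several places is not given in the sources used here. Each table has 25965 lines, of which 65 share an identifier with another and were summed.

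Libraries under 100000 counts (19 of 135) were left out. CPM is counts scaled to a library total of 1000000. Limits for counts of 0 cover counting error only. Groups were compared with edgeR 4.0.16 (R 4.3.3; filterByExpr, TMM, robust quasi-likelihood test), fitted on the groups compared over all genes, Benjamini-Hochberg adjusted, called under 0.05, with SE taken as the fold change over the root of F. A second fit took the summed counts of the 13 mt- genes as library size. All 10 members are named by rule. Of the 42-gene mitochondrial expression list, the text names genes of largest change. Others were chosen after their values were seen, among them Tfam, Tfb2m and, for maternal deletion, Supv3l1. Members, lists and tests were chosen with earlier results of these data known. The nearest genes by likeness had a mean log2 CPM of at least 6.

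Replicate numbers mark a shared collection, so they pair libraries: the deviations of same-numbered groups correlated at 0.537 (deletion against wild type), 0.590 (anti-SMARCA5 against IgG), 0.0902 (against uninjected) and 0.432 (IgG against uninjected). Alternatives were the replicate block, each replicate left out, other depth minimums, no filter, DESeq2 1.42.0 and other scalings.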

Additional observations from a re-analysis of the deposited data

Results flagged for a closer look

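One anti-SMARCA5 library of replicate 2 had 74.1% of its counts from the 10 members, against 35.5% in the next of 7 libraries. The gap was 0.735 of the group's range, above Dixon's limit of 0.568, which chance passes in about 1 of 20 groups. Without it all 10 members still rose against uninjected embryos (median log2 fold change 1.39).

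Libraries under the depth minimum entered no comparison. In the 12 of them with at least 1000 counts the members' percent had a median of 15.7% (1.47 to 56.5), and 9 were above the highest well without an embryo.

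The 3 mt- genes that are no members also had counts, with median CPM of 116 for mt-Nd3, 104 for mt-Nd4l and 59.5 for mt-Atp8 over the libraries used.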

How the results depend on the processing

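After a count of members, parentheses give the genes called either way out of all genes tested. For maternal deletion against wild type, 1 member was called (4825 of 8518), and 4 with the replicate block (4907 of 8518). It was 8 without replicate 1 (3879 of 9730), 0 without replicate 2 (2801 of 6389) and 0 with at least 500000 counts a library (4023 of 9734). For anti-SMARCA5 against IgG, 1 was called (317 of 10447). It was 2 with at least 20000 counts (419 of 10096), 2 without a filter (3010 of 22374) and 4 by DESeq2 (1029 of 10447). It was 0 without replicate 1 (0 of 9402), 0 without replicate 2 (591 of 10100) and 1 without replicate 3 (417 of 11044). Within replicate 1 it was 0 (90 of 10507) and within replicate 3 it was 0 (1576 of 9547), both chosen after seeing the data. Against uninjected embryos, 10 were called (2999 of 10750), 10 with the replicate block (3426 of 10750) and 1 within replicate 3 (2318 of 8697). It was 0 without replicate 1 (1 of 10544), 10 without replicate 2 (2921 of 10283) and 10 without replicate 3 (2002 of 11142). Relative to the mitochondrial total, where the counts of all genes carry the shift of the scale, that comparison had 0 called (6635 of 10750). It had 1 with the replicate block (6131 of 10750) and 1, mt-Co3, without the library lacking Trim21 (6528 of 10699). It had 0 without replicate 1 (1615 of 10544), 1 without replicate 2 (5789 of 10283) and 0 without replicate 3 (7565 of 11142). With the block the count called stayed at 1 against IgG (2691 of 10447) and at 0 for IgG against uninjected (0 of 9915). Against IgG 1 member in place of 8 was then at an unadjusted p under 0.05, beside 4252 in place of 2762 of all genes. For the deletion effect minus the TrimAway effect the block left 0 called (1404 of 12035) but put 7 of 10 differences above 0. For IgG against uninjected, 0 were called (0 of 9915), 3 without a filter (881 of 20956) and 3 by DESeq2 (207 of 9915). Permutation tests of shares gave 2, 2 and 1 members for the deletion, IgG and IgG-uninjected comparisons. The replicate difference of the deletion effect had 0 called (65 of 8518), 1 with total counts as scale (97 of 8518) and 2 without a filter (678 of 20995). Between collections, relative to the mitochondrial total, at least 500000 counts left 0 calls in wild type (2927 of 9858) and 1 after maternal deletion (1789 of 9466). mt-Co2 reversed for the deletion with at least 500000 counts (−0.31), no filter (−0.11), total counts (−0.085), the total outside mt- genes (−0.095) and without the 3 libraries that stood apart (−0.036). Within replicate 3 against IgG, mt-Co2 (−0.31), mt-Atp6 (−0.035), mt-Co3 (−0.39), mt-Nd4 (−0.026) and mt-Cytb (−0.24) reversed, and mt-Nd5 (−0.015) against uninjected. Leaving out replicates in the deletion comparison gave log2 fold changes from −0.50 to 1.63 (mt-Nd1), −0.13 to 1.72 (mt-Nd2), −0.53 to 0.74 (mt-Co2), −0.47 to 2.20 (mt-Co3), −0.066 to 0.97 (mt-Nd4), −0.071 to 1.34 (mt-Nd5), −0.42 to 0.94 (mt-Nd6) and −0.047 to 0.83 (mt-Cytb), and those of mt-Nd5 for IgG against uninjected ran from −0.048 to 1.14. Differences of mean members' percent, with a replicate left out, ran from −1.71 to 2.59 points for the deletion (1.44 in all, 0.437 with the block), 4.73 to 10.3 for anti-SMARCA5 against IgG (7.14, 4.50 with the block), 9.28 to 16.2 against uninjected (12.4, 8.37 with the block) and 1.87 to 5.87 for IgG against uninjected (5.29, 3.87 with the block). Of the other values, 465 single-member results kept their direction and side of the threshold. Another 122 summaries stayed near their main value, judged by the ratio of counts called or, for percent differences, by the SD between libraries. Their sign was not part of that rule. The causes of these changes were not tested. Few pools, lanes tied to pools and low counts of mt-Co2, mt-Co3 and mt-Atp6 limit the precision.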
